A study of Homo sapiens with 6 samples.

Results

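The genes described here are 8 mouse genes known as targets that low oxygen induces: Adm, Car9, Bnip3, Ndrg1, Ankrd37, Slc2a1, P4ha1 and Ddit4. They were taken by Ensembl gene ID from a table of 77134 mouse genes, and each of the 8 IDs was found once. The table holds estimated counts, the number of sequenced fragments a quantifier assigns to each gene, in 6 tumours. Each tumour grew under the skin of a BALB/c nude mouse, a strain without a thymus, after transplantation of 5000000 A549 cells, a human lung adenocarcinoma line. In the 3 control tumours the cells stably carried the lentiviral vector pLV-CMV-EGFP-Neo. In the 3 overexpression tumours they carried pLV-CMV-HIF1A-AS3-EGFP-Neo, so both groups shared the CMV promoter, EGFP and the Neo cassette. Whether each stable line was 1 clone, and whether each tumour came from a separate mouse, is not stated in the labels, so p-values cover only tumour-to-tumour spread, which may in part be technical. HIF1A-AS3 is a long RNA transcribed antisense to human HIF1A, the gene of HIF-1α. It was not analysed here, because the table lists mouse genes only, and the labels could not be checked against it.

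Cells sense oxygen through the HIF transcription factors. In well-oxygenated cells, prolyl hydroxylases mark the HIF-α subunit for destruction through the VHL protein. When oxygen is scarce the subunit persists, pairs with ARNT and binds the promoters and enhancers of target genes. The 8 genes cover several arms of that response: a vasodilator peptide, a surface enzyme that handles acid, a receptor for removal of mitochondria, a brake on growth signalling, a glucose transporter and an enzyme of collagen maturation. Several of them also respond to other signals. Ddit4, for example, is also induced by glucocorticoids and by the ATF4 stress pathway.

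Because the deposited IDs are of mouse genes, the values describe host cells in the tumour sample, such as vessels, stroma or immune cells. They also include any human RNA close enough in sequence to be counted on a mouse gene. How much human RNA was counted there was not tested. In such bulk RNA, more cells of one type and more RNA per cell cannot be told apart. Gene names do not stand beside the IDs in the table, so marker genes of host cell types, the HIF subunits and the wider hypoxia response were not analysed here.

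Library totals ranged from 4167784 to 4769157 estimated counts. Levels are given as CPM, counts brought to a common library size with TMM scaling, which estimates each library's effective depth from the bulk of its genes. Overexpression replicate 1 stood apart: it had the largest total but the lowest TMM factor, 0.742 against 1.02 to 1.10 in the other libraries, and 17356 genes with at least 1 count against 18753 to 19010. Overexpression replicate 2 lay nearer to the controls (mean Pearson r of log2 CPM across genes, 0.951) than to the other overexpression libraries (0.908). For overexpression replicate 3 these values were nearly equal, at 0.923 and 0.920. Where a member's value rests on overexpression replicate 1 or 2, the value without it is given.

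Adm, Bnip3, Ndrg1 and Ddit4 were the members with every overexpression tumour above every control tumour, as were 6.79% of all genes tested. The average difference was 2.48-fold for Adm, 1.87-fold for Bnip3, 1.71-fold for Ddit4 and 1.50-fold for Ndrg1. Slc2a1 and P4ha1 had overlapping groups, at 1.14-fold and 1.16-fold. None of the 6 members that could be tested passed the threshold of an adjusted p below 0.05 (edgeR quasi-likelihood test, Benjamini-Hochberg over all 12637 genes tested), which 0.0158% of all genes passed. DESeq2 and limma-voom on the same genes also called 0 of the 6. Car9 and Ankrd37 were too sparse for the test.

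**Figure D1:**
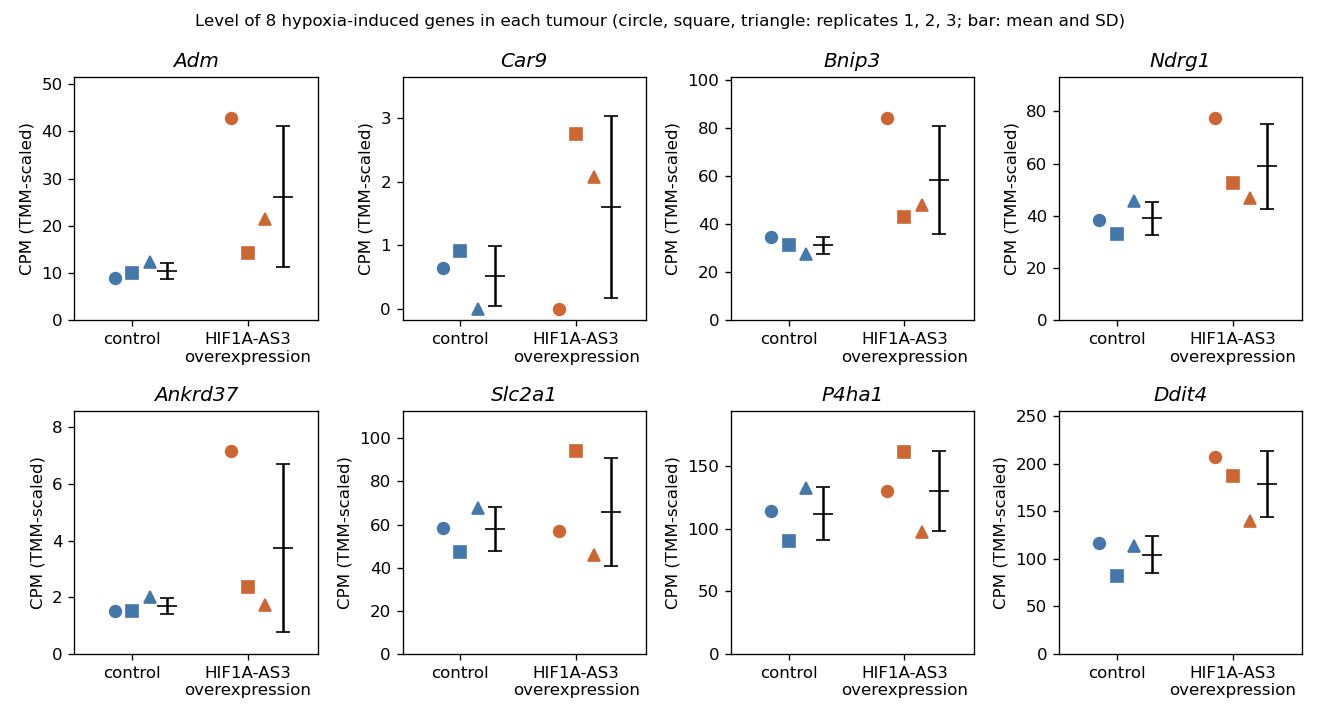
Level of each of the 8 genes in TMM-scaled CPM (vertical axes, each with its own range) in the 3 control (blue) and 3 HIF1A-AS3 overexpression tumours (orange); circles, squares and triangles are replicates 1, 2 and 3, and bars give the mean and SD. Control points of Adm range from 9.08 to 12.5 CPM and its overexpression points from 14.3 to 42.9 CPM, while the Slc2a1 and P4ha1 points of the groups overlap.

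Adm (ENSMUSG00000030790.16) encodes adrenomedullin, a secreted peptide that widens vessels and acts on endothelial cells. Its estimated counts were 42, 44 and 58 in control replicates 1, 2 and 3, and 151, 68 and 93 in overexpression replicates 1, 2 and 3. As CPM these were 9.08, 9.95 and 12.5 against 42.9, 14.3 and 21.4. The groups did not overlap, and the overexpression tumours were far more scattered than the controls. With TMM replicate 1 was 4.08 times the control mean, replicate 3 was 2.04 times and replicate 2 was 1.36 times. By library totals replicate 1 was 2.79 times the control mean. The control mean was 10.5 ± 1.76 CPM and the overexpression mean 26.2 ± 14.9 CPM (SD, n = 3 per group). On the log2 scale the fitted difference was 1.31 ± 0.40 (SE), with a 95% interval of 0.37 to 2.24. Its unadjusted p was 0.012 and its adjusted p 0.70 (edgeR). Of all genes tested, 0.704% had a higher log2 fold change. Without overexpression replicate 1 the log2 fold change was 0.73, or 1.66-fold, and without overexpression replicate 2 it was 1.61.

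Bnip3 (ENSMUSG00000078566.9) encodes a protein of the outer mitochondrial membrane that recruits the autophagy machinery, by which cells clear mitochondria when oxygen is short. Its levels were 34.9, 31.3 and 27.7 CPM in control replicates 1, 2 and 3 and 84.4, 43.0 and 48.1 CPM in overexpression replicates 1, 2 and 3. Again the groups lay apart, with overexpression replicate 1 well above the other two. The control mean of 31.3 ± 3.61 CPM and the overexpression mean of 58.5 ± 22.6 CPM (SD, n = 3 per group) gave a log2 fold change of 0.90 ± 0.28 (SE). The adjusted p from edgeR was 0.70. The 95% interval of that single value was 0.26 to 1.54, and without overexpression replicate 1 the log2 fold change was 0.51. Bnip3 is uncertain in one respect: 0 of its 6 estimates were whole numbers to within 0.001, as happens where reads are shared with another gene.

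Ddit4 (ENSMUSG00000020108.5), also called REDD1, encodes a stress-induced inhibitor of mTORC1, the kinase complex that drives protein synthesis and growth. It had the most counts of the 8 genes, between 363 and 889 per library, all whole. Control replicates 1, 2 and 3 stood at 116.8, 82.1 and 113.9 CPM and overexpression replicates 1, 2 and 3 at 207.3, 187.3 and 139.8 CPM. Here overexpression replicate 1 was not set apart, since replicate 2 was nearly as high, and the coefficient of variation was 18.4% in controls and 19.5% in overexpression tumours. Controls averaged 104.3 ± 19.2 CPM and overexpression tumours 178.2 ± 34.7 CPM (SD, n = 3 per group). The log2 fold change was 0.77 ± 0.22 (SE), with a 95% interval of 0.26 to 1.29. Its unadjusted p of 0.0086 was the smallest of the 6 members tested, and its adjusted p was 0.70 (edgeR). Leaving out any 1 library gave log2 fold changes between 0.62 and 0.92.

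Ndrg1 (ENSMUSG00000005125.14) encodes a cytoplasmic protein induced by hypoxia and other stresses during growth arrest and differentiation. Control replicates 1, 2 and 3 measured 38.5, 33.2 and 45.8 CPM, and overexpression replicates 1, 2 and 3 measured 77.5, 52.5 and 46.7 CPM. The gap between the groups was narrow, since overexpression replicate 3 was just above control replicate 3. Averages of 39.2 ± 6.29 CPM for controls and 58.9 ± 16.4 CPM for overexpression tumours (SD, n = 3 per group) gave a log2 fold change of 0.59 ± 0.24 (SE). The unadjusted p was 0.041 and the adjusted p 0.70 (edgeR). That unadjusted p was below 0.05 in 10 of 15 alternative settings. In the others edgeR gave 0.077 with a replicate block and 0.20 with library totals only. It gave 0.10 and 0.13 without control replicates 1 and 2, and 0.15 without overexpression replicate 1. Without overexpression replicate 1 the log2 fold change was 0.31. In that fit the filter and scaling were recomputed on the remaining libraries, and the groups overlapped only with that new scaling. At the scaling of all 6 libraries they stay apart, at 46.7 CPM in overexpression replicate 3 against 45.8 CPM in control replicate 3. Of its 6 estimates, 2 were whole.

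Slc2a1 (ENSMUSG00000028645.12) encodes GLUT1, the glucose transporter that feeds glycolysis in many cell types. Its levels were 58.4, 47.3 and 67.6 CPM in control replicates 1, 2 and 3 and 57.2, 93.9 and 46.1 CPM in overexpression replicates 1, 2 and 3. Only overexpression replicate 2 exceeded the controls, and with TMM replicate 3 was the lowest of all 6 libraries. Overexpression replicate 1, the highest tumour for Adm, Bnip3 and Ndrg1, stood at 0.990 times the control mean with TMM. By library totals it stood at 0.675 times and was the lowest library, at 42.2 CPM against 46.9 in replicate 3. Controls averaged 57.8 ± 10.2 CPM and overexpression tumours 65.8 ± 25.0 CPM (SD, n = 3 per group), a log2 fold change of 0.19 ± 0.29 (SE). The adjusted p was 0.87 (edgeR). The 95% interval, -0.48 to 0.85, spans from 0.718-fold to 1.80-fold, so a sizeable difference either way is not excluded. Without overexpression replicate 2 the log2 fold change was -0.16. None of the 6 estimates of Slc2a1 was whole.

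P4ha1 (ENSMUSG00000019916.15) encodes the catalytic subunit of a prolyl 4-hydroxylase, the enzyme that modifies collagen chains so that they form a stable triple helix. Control replicates 1, 2 and 3 measured 114.0, 90.0 and 132.1 CPM, and overexpression replicates 1, 2 and 3 measured 130.1, 161.4 and 97.5 CPM. Overexpression replicate 2 was again the highest library, and the groups overlapped. Controls averaged 112.0 ± 21.1 CPM and overexpression tumours 129.7 ± 31.9 CPM (SD, n = 3 per group). The fitted log2 fold change was 0.21 ± 0.24 (SE), with a 95% interval of -0.34 to 0.76 and an adjusted p of 0.83 from edgeR. Without overexpression replicate 2 the log2 fold change was 0.02.

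Car9 and Ankrd37 did not pass the filter on low counts, which requires about 10 counts in at least 3 libraries. Car9 (ENSMUSG00000028463.15) encodes a surface carbonic anhydrase that converts carbon dioxide to bicarbonate and protons. It had 3, 4 and 0 estimated counts in control replicates 1, 2 and 3, and 0, 13 and 9 in overexpression replicates 1, 2 and 3. Each group therefore held a library at 0, and the sums were 7 and 22 counts. A count of 0 allows up to 3 counts, or 0.852 CPM in overexpression replicate 1, where Adm and Bnip3 were highest, against 2.74 CPM measured in overexpression replicate 2. Ankrd37 (ENSMUSG00000050914.17) encodes an ankyrin repeat protein. Its estimated counts were 7, 6.721 and 9.355 in controls and 25.163, 11.15 and 7.529 in overexpression replicates 1, 2 and 3. Only overexpression replicates 1 and 2 lay above every control. Replicate 1 was 4.25 times the control mean in CPM with TMM and 2.90 times by library totals. With no filter on low counts, edgeR gave log2 fold changes of 1.63 for Car9 and 1.13 for Ankrd37, both at an adjusted p of 0.73. As a difference of mean log2 CPM (prior count 2), Car9 stood at 0.81, and at 1.69 and 0.28 without overexpression replicates 1 and 2. For Ankrd37 this difference was 0.78, and 0.22 without overexpression replicate 1.

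**Figure D2:**
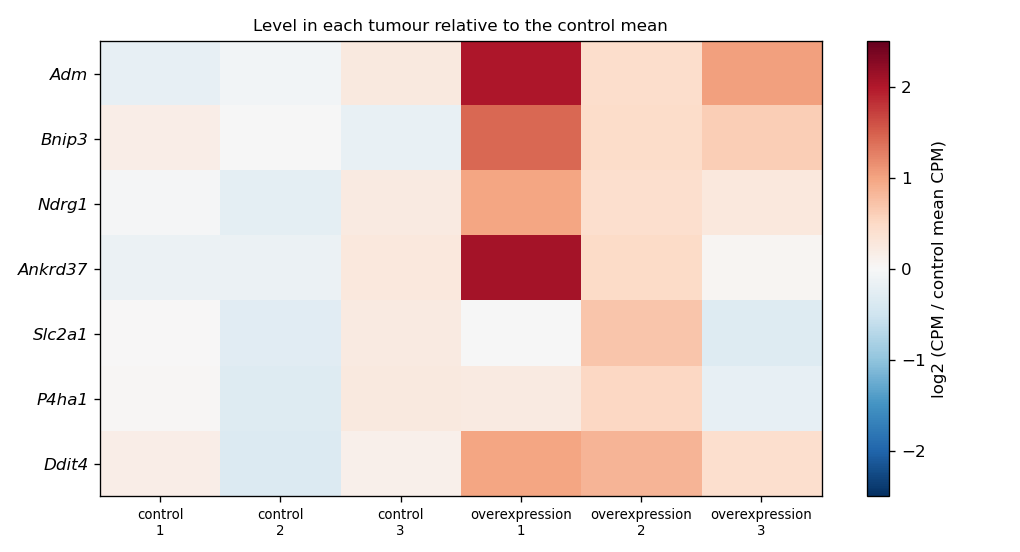
Log2 ratio of each tumour's CPM to the control mean (colour; red above, blue below) for the 7 members other than Car9 (rows) in the 6 tumours (columns). Overexpression replicate 1 is deepest for Adm and Ankrd37, at 4.08 and 4.25 times the control mean with TMM (2.79 and 2.90 by library totals). It is near the control mean for Slc2a1, at 0.990 times with TMM.

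The 6 members tested each had at least 42 counts in every library, so none passed the filter through 1 group alone. All 6 had a positive log2 fold change, with a median of 0.68, against 50.6% of all genes tested and a median of 0.01. Without overexpression replicate 1 the median of the 6 was 0.41. At an unadjusted p below 0.05 in edgeR, 4 of the 6 members were higher in overexpression tumours, where 3.58% of all genes were. This background moved with single libraries and with scaling. It was 10.4% without overexpression replicate 2 (4 members), 1.76% without overexpression replicate 1 (3 members) and 0.902% with library totals only (2 members). It was also lower without control replicate 1, at 1.17% (3 members), without control replicate 2, at 2.37% (3 members), and without control replicate 3, at 1.13% (4 members). The groups did not overlap, with overexpression higher, in the same 4 members and in 6.79% of all genes tested. That share was 19.5% without overexpression replicate 2, 13.8% without control replicate 2 and 12% without overexpression replicate 3, with 4 members each time. It was 9.01% and 9.57% without control replicates 1 and 3, also with 4 members, and 8.21% without overexpression replicate 1, with 3 members. With a library left out, fewer tumours must lie apart, so groups separate more readily. The filter and scaling were also recomputed each time, so these shares cannot be set against 6.79%. The fall to 3 members without overexpression replicate 1 came with the recomputed scaling, under which the groups of Ndrg1 overlapped. The member counts describe genes chosen with earlier results of these data known, and no test was made over them. Of all genes tested, 5% had a log2 fold change above 0.77, a value that Adm and Bnip3 exceeded and Ddit4 about matched.

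**Figure D3:**
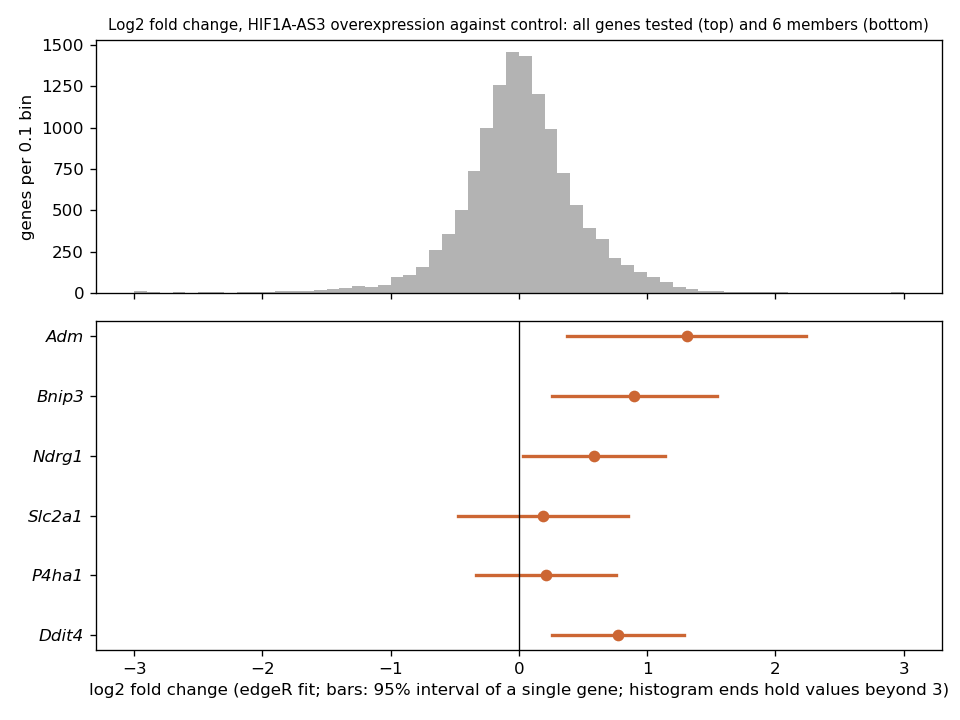
Top, number of genes (vertical axis) in bins of log2 fold change between overexpression and control tumours (horizontal axis) for all 12637 genes tested; bottom, the estimate and 95% interval of each member tested. The intervals of Adm, Bnip3, Ndrg1 and Ddit4 lie above 0 before adjustment, and those of Slc2a1 and P4ha1 span 0.

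By tumour and with TMM, the median of the 6 members relative to their control means was 1.98 in overexpression replicate 1. It was 1.41 in replicate 2 and 1.27 in replicate 3. Over all genes tested the same median was 0.953, 1.01 and 0.997. The tumours thus differed in which members stood out. Overexpression replicate 1 was the highest library for Adm, Bnip3, Ndrg1 and Ddit4, and overexpression replicate 2 for Slc2a1 and P4ha1. For Ddit4 that order holds with TMM only: by library totals replicate 2 was highest, at 190.9 CPM against 153.1 in replicate 1. In replicate 2 all 6 members were above their control means, whereas in replicate 3 Slc2a1 and P4ha1 were below, at 0.798 and 0.870 times. Among controls, replicate 2 was below the control mean for all 6 members, with a median of 0.834. The median coefficient of variation of the 6 members was 17.1% in controls and 33.0% in overexpression tumours, and over all genes tested it was 14.5% and 26.5%. Counting error alone would give 14.4% for Adm in controls and 4.58% for Ddit4.

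Ratios between members of one library do not depend on how libraries are scaled. The ratio of P4ha1 to Slc2a1 counts was 1.95, 1.90 and 1.95 in control replicates 1, 2 and 3. It was 2.27, 1.72 and 2.11 in overexpression replicates 1, 2 and 3. Its SD was 0.0292 in controls and 0.286 in overexpression tumours. Over the 6 libraries that ratio had a coefficient of variation of 9.56%. Adm relative to P4ha1 was 0.0797, 0.111 and 0.0943 in controls and 0.330, 0.0888 and 0.219 in overexpression replicates 1, 2 and 3. Overexpression replicates 1 and 3 thus lay above every control, and replicate 2 lay among the controls. For Bnip3 and Ndrg1 relative to P4ha1, overexpression replicates 1 and 3 also lay above every control. Replicate 2 was among the controls for Bnip3 and just below them for Ndrg1, at 0.325 against 0.337 in the lowest control. Bnip3 stood at 2.26, 0.927 and 1.72 times the control mean ratio in overexpression replicates 1, 2 and 3, and Ndrg1 at 1.70, 0.926 and 1.36 times.

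Ddit4 was the member whose ratio to P4ha1 separated the groups. It was 1.02, 0.912 and 0.862 in control replicates 1, 2 and 3 and 1.59, 1.16 and 1.43 in overexpression replicates 1, 2 and 3. Controls averaged 0.933 ± 0.0834 and overexpression tumours 1.40 ± 0.219 (SD, n = 3 per group). Of all other genes, 0.388% had a ratio to P4ha1 that was higher in every overexpression tumour than in every control. P4ha1 itself was highest in overexpression replicate 2. Relative to Slc2a1, Ddit4 overlapped by a small margin: 1.994 in overexpression replicate 2 against 1.999 in control replicate 1. P4ha1 and Slc2a1 were taken as denominators after their values were seen, so these ratios are a description and were not tested.

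**Figure D4:**
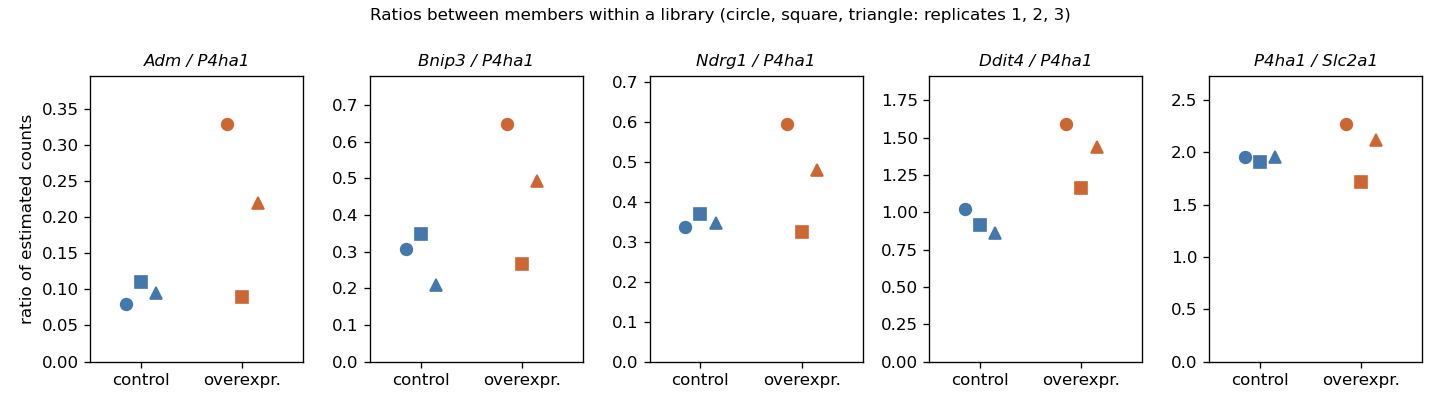
Ratio of estimated counts between 2 members within each library (vertical axes from 0) for 3 control (blue) and 3 overexpression tumours (orange); circles, squares and triangles are replicates 1, 2 and 3. Overexpression replicate 2 (square) lies at or near the control points for Adm, Bnip3 and Ndrg1 relative to P4ha1, and above them for Ddit4, at 1.16.

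The size of these differences depends on scaling, and overexpression replicate 1 has the lowest TMM factor. With library totals only, the median over all genes fell by 0.22 on the log2 scale. On that scale Adm was at 1.00, Bnip3 at 0.61, Ddit4 at 0.52 and Ndrg1 at 0.31, while Slc2a1 and P4ha1 turned to -0.02 each. Relative to the median of all genes in that fit, the values were 1.21, 0.83, 0.74, 0.53, 0.19 and 0.20 for Adm, Bnip3, Ddit4, Ndrg1, Slc2a1 and P4ha1. The groups of Adm, Bnip3 and Ddit4 did not overlap under either scaling, and those of Ndrg1 overlapped with library totals. With library totals 2.10% of all genes had every overexpression tumour above every control, against 6.79% with TMM.

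**Figure D5:**
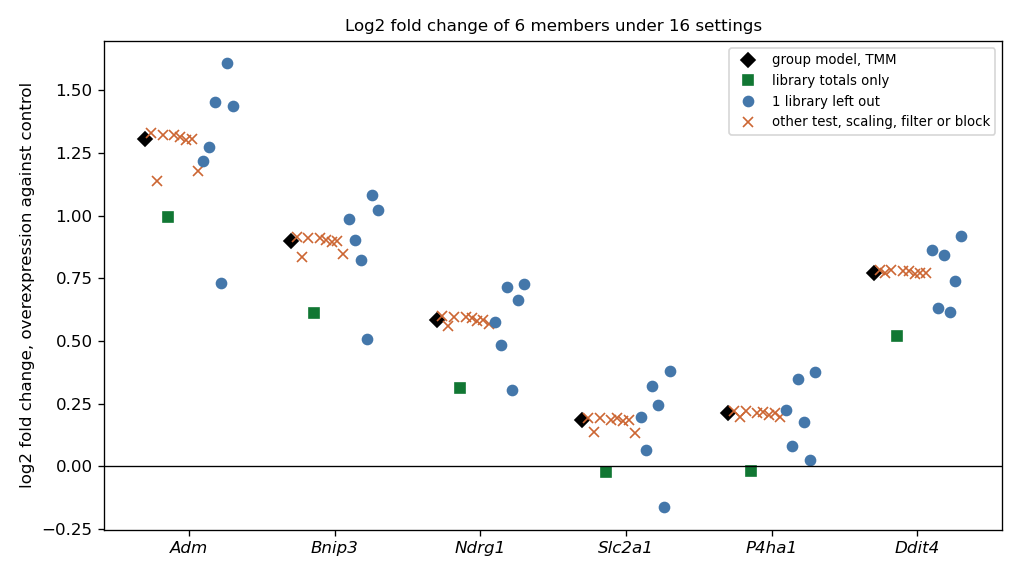
Log2 fold change between overexpression and control tumours (vertical axis) of the 6 members tested under 16 settings: the group model with TMM (black diamonds), library totals only (green squares), 1 library left out (blue circles), and other tests, scalings, filters or the replicate block (orange crosses). Adm, Bnip3, Ndrg1 and Ddit4 are above 0 in each setting, and Slc2a1 reaches -0.16 without overexpression replicate 2.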

How the data were processed

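The authors deposited 1 table of unscaled estimated counts for mouse genes, whose 6 columns are the tumours, per the file header. The submitters' processing notes name the build mm10, HISAT2 2.2.1, edgeR, featureCounts 2.0.6, Trimmomatic 0.39 and DESeq2, without saying what each did. The deposited counts are labelled as salmon counts, and those notes do not name that quantifier. No source used here states its version or the annotation. Columns were assigned to tumours by name.

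Estimated counts were rounded and analysed in R 4.3.3 with edgeR 4.0.16: filterByExpr (12637 genes, holding 99.5% of counts), TMM, and a robust quasi-likelihood F-test with group as the only term. P-values were Benjamini-Hochberg adjusted over all genes tested. Standard errors were computed as the estimate over the root of F. Overlap of groups was judged on log2 CPM with a prior count of 2. Zeros were given a limit of 3 counts, and such limits cover counting error only.

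The members and lists were chosen with earlier results of these data known. The rule for named genes took all 8 members, the leading genes of 20 lists given by symbol, and the genes most like the members. It named only the members, because 0 of the table's IDs matched the name tables used here, so no list was analysed. Member names come from the rule that defined the set. Alternatives covered the test (DESeq2 1.42.0, limma-voom 3.58.1), scaling, filter, robust fitting, a replicate block and leaving out each library. When a library was left out, the filter and scaling were recomputed on the rest.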

Additional observations from a re-analysis of the deposited data

How the results depend on the processing

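None of the 6 members tested throughout passed the threshold in any of 15 alternatives, nor did Ankrd37 in the 5 and Car9 in the 1 that tested them. The lowest adjusted p of a member was 0.12, for Adm without overexpression replicate 2, and over the alternatives Adm's ranged up to 1.00. With library totals only, Slc2a1 turned to -0.024 and P4ha1 to -0.018, in a fit where the median over all genes shifted by -0.22. Leaving out 1 library moved Slc2a1 between -0.16 (without overexpression replicate 2) and 0.38 (without overexpression replicate 3). The median log2 fold change of the 6 members, 0.68, ranged from 0.41 without overexpression replicate 1 to 0.82 without overexpression replicate 3. The number of genes called among all tested, 2, was 28 with DESeq2, 7 with limma-voom, 14 when no low genes were filtered out, 4 under library totals and 0 with the replicate block, where 414 genes had an unadjusted p below 0.05. Leaving out 1 library gave 0 to 14: 14 without overexpression replicate 2, 1 without overexpression replicate 1, and 0 without control replicate 1 or overexpression replicate 3, where edgeR had 327 and 947 genes at an unadjusted p below 0.05. The causes were not tested.

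Same-numbered libraries did not deviate together (correlations of -0.09, -0.34 and -0.10 for replicates 1, 2 and 3), and the labels name no pairing. With the replicate block the log2 fold changes were 1.18 for Adm, 0.85 for Bnip3, 0.77 for Ddit4 and 0.57 for Ndrg1, and edgeR called 0 members, with 3 higher at an unadjusted p below 0.05, as were 1.29% of all genes. At this depth the few counts of Car9 and Ankrd37 limit what can be said of them.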
